A study of Mus musculus with 8 samples.

Results

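The 10 genes described here encode growth factors that macrophages secrete or release from their surface: the platelet-derived growth factor chains Pdgfa, Pdgfb and Pdgfc, the epidermal growth factor relatives Hbegf, Areg and Ereg, the insulin-like growth factor Igf1, the activin subunit Inhba, the transforming growth factor Tgfb1, and the IL6-family cytokine oncostatin M (Osm). They were taken by name, as the Ensembl identifiers whose mouse symbols are these 10, and they are 10 of the 36806 gene identifiers in the deposited tables. Each name matched 1 identifier. The rule goes by name alone and uses no measured value, but the list was drawn up with earlier results of these data known.

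Macrophages are a main source of growth factors in healing and fibrotic tissue. PDGF chains pair into dimers that drive the growth and migration of mesenchymal cells through the receptor tyrosine kinases Pdgfra and Pdgfrb. Hbegf, Areg and Ereg are made as membrane-anchored precursors that proteases cut free to bind Egfr and its relatives, and IGF1 promotes survival and growth through Igf1r. Activin A, the dimer of the Inhba product, and TGFb1 signal through serine/threonine kinase receptors to Smad proteins, and TGFb1 is stored in a latent complex until it is activated. Oncostatin M acts through Il6st joined to Osmr or Lifr and is known as a factor for stromal cells and hepatocytes.

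Poly(A) RNA had been sequenced from bone marrow-derived macrophages of C57BL/6 mice, grown from marrow for 7 days in medium with L929-conditioned supernatant. L929 is a mouse fibroblast line that supplies the macrophage growth factor CSF1. Stimulated cultures received 1 agent for 4 h: IFNg (interferon gamma, 100 ng/ml), IL4 (interleukin 4, 10 ng/ml), TNFa (tumour necrosis factor, 10 ng/ml), TGFb1 (transforming growth factor beta 1, 1 ng/ml), IL1b (interleukin 1 beta, 10 ng/ml), MALP2 (a mycoplasmal lipopeptide sensed by Tlr2 with Tlr6, 1 ng/ml) or CpG (unmethylated CpG DNA sensed by Tlr9, 100 nM), and 1 culture was left untreated. With 1 library in each of the 8 groups, differences could not be set against a spread between cultures, and no test was made. Below, TGFb1 is the added agent and Tgfb1 the transcript that the macrophages made.

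Levels are FPKM, fragments scaled to transcript length and to the mapped fragments of the library, with all tables brought to 1 scale through the untreated library they share. Values in parentheses are the authors' lower and upper confidence bounds, whose level is not stated in the files, and they describe 1 library and not the spread between cultures. Log2 ratios compare a stimulated with the untreated library of the same deposited table after adding 1 FPKM to both, which understates the change of low genes. A gene is called measured when at least 1 of the pair reaches 1 FPKM, and at least 2-fold apart when this log2 ratio is 1 or more in size.

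The PDGF chains Pdgfa and Pdgfb were higher after the most agents: Pdgfa was at least 2-fold higher after all 7 agents and Pdgfb after 6, all but IL4. Pdgfc and Hbegf were at least 2-fold higher after IFNg and IL4 and after no other agent. Inhba was at least 2-fold higher after 5 agents, IFNg, TNFa, TGFb1, IL1b and CpG, and Osm after IFNg. Igf1 and Tgfb1 had the highest untreated levels of the 10 and stayed within 2-fold of untreated after every agent. Areg and Ereg remained under 1 FPKM in all 8 libraries. In bulk RNA, fewer cells of a type and less RNA per cell cannot be told apart.

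**Figure D1:**
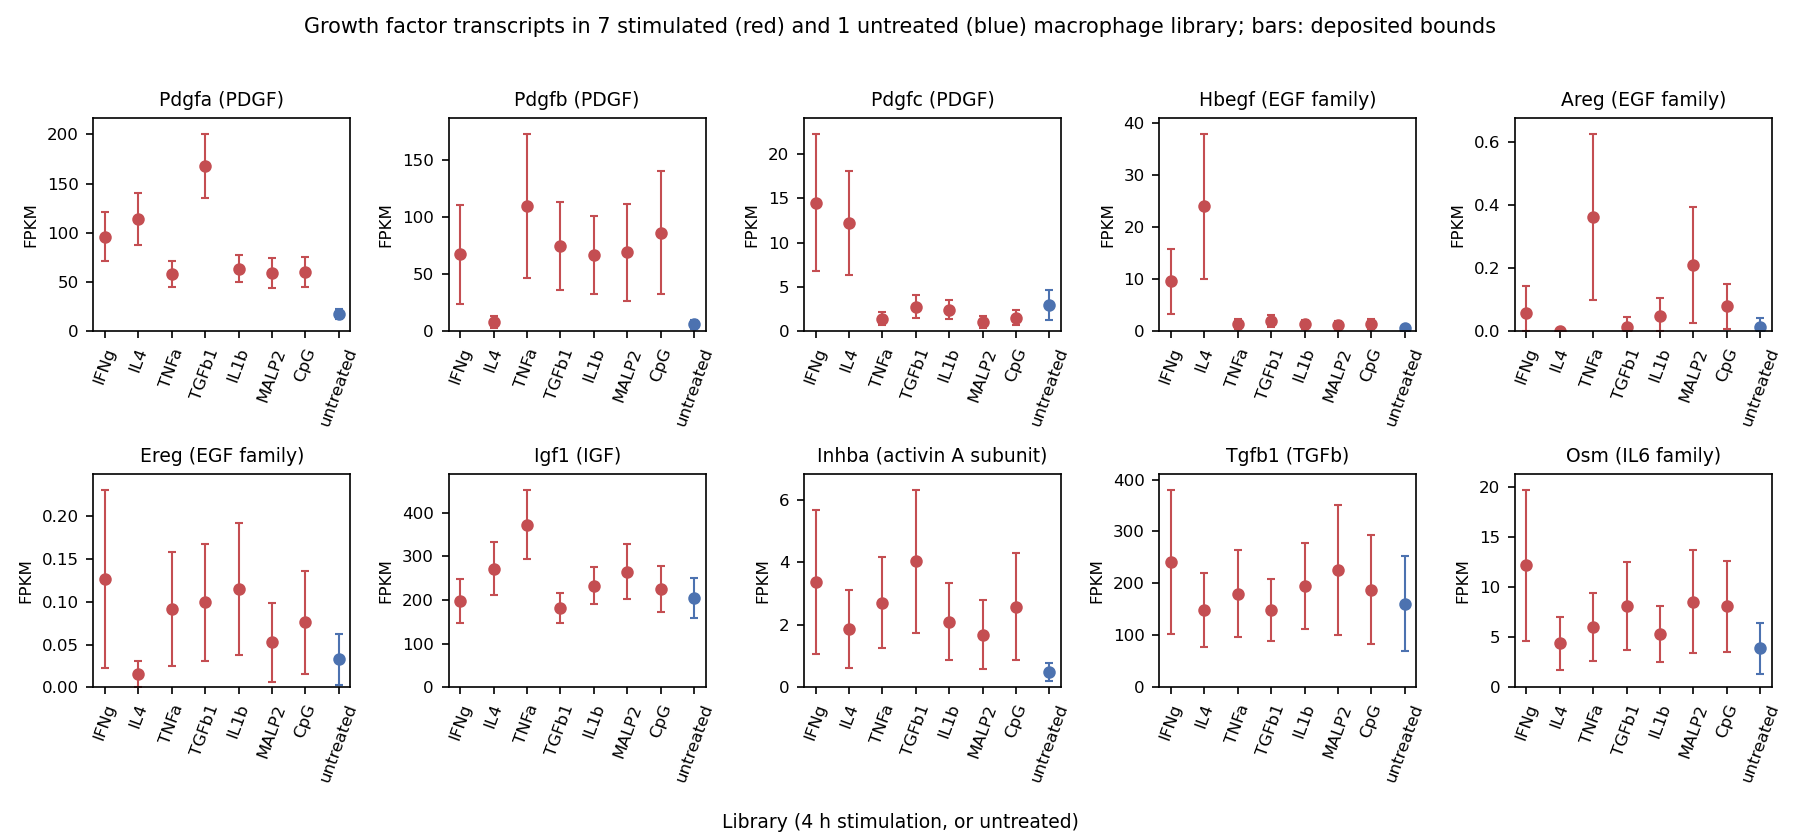
FPKM of each of the 10 growth factor genes (vertical axes from 0, 1 scale per gene) in the 7 stimulated libraries (red) and the untreated library (blue), with the authors' bounds as bars. Pdgfa is at least 2-fold above untreated in all 7 stimulated libraries, Pdgfb in all but IL4, Pdgfc and Hbegf are high in IFNg and IL4, and Areg and Ereg stay under 1 FPKM.

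Counted against all genes, 6 of the 8 measured members were at least 2-fold higher after IFNg, where 10.7% of 12813 measured genes were. After IL4 3 of 8 were higher, beside 9.86% of 12908 genes, and after TNFa 3 of 8, beside 8.92% of 12825. After TGFb1 the count was 3 of 8 beside 7.15% of 12847 genes, and after IL1b 3 of 8 beside 7.29% of 12768. After MALP2 it was 2 of 8 beside 9.53% of 12722 genes, and after CpG 3 of 8 beside 9.43% of 12769. No member was at least 2-fold lower, while 12.7% of measured genes were after IFNg, 11.9% after IL4, 10.4% after TNFa, 9.15% after TGFb1, 8.57% after IL1b, 11.7% after MALP2 and 11.2% after CpG. Hbegf and Inhba lay under 1 FPKM untreated and were measured only through the stimulated library, so they could only be counted as higher. Among the 6 members at 1 FPKM or more untreated, 4 were higher after IFNg, where 8.98% of 12251 such genes were, and 2 after each other agent, beside 8.36% of genes after IL4, 7.47% after TNFa, 5.93% after TGFb1, 6.24% after IL1b, 8.06% after MALP2 and 7.73% after CpG. The authors' deposited table, made with Cuffdiff, also called every member value past 2-fold except that of Osm after IFNg; it called and placed at 2-fold or higher 7.56% of genes after IFNg, 6.79% after IL4, 6.4% after TNFa, 5.09% after TGFb1, 5.33% after IL1b, 6.34% after MALP2 and 6.6% after CpG. All 7 comparisons share the 1 untreated library.

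A second comparison left the untreated library out and set each stimulated library against the median of the other 6, which shows where an agent stood apart from the rest. Members at least 2-fold higher this way were Pdgfc and Hbegf after IFNg, where 7.71% of genes were, Pdgfc and Hbegf after IL4, where 4.88% were, and Pdgfa after TGFb1, where 3.54% were. After TNFa, IL1b, MALP2 and CpG no member was higher, beside 1.6%, 1.24%, 3.24% and 3.65% of genes. Pdgfb after IL4 was the only lower member value, beside 5.88% of genes there. Lower shares after the other agents were 3.5% after IFNg, 0.837% after TNFa, 4.03% after TGFb1, 1.12% after IL1b, 1.49% after MALP2 and 0.837% after CpG.

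**Figure D2:**
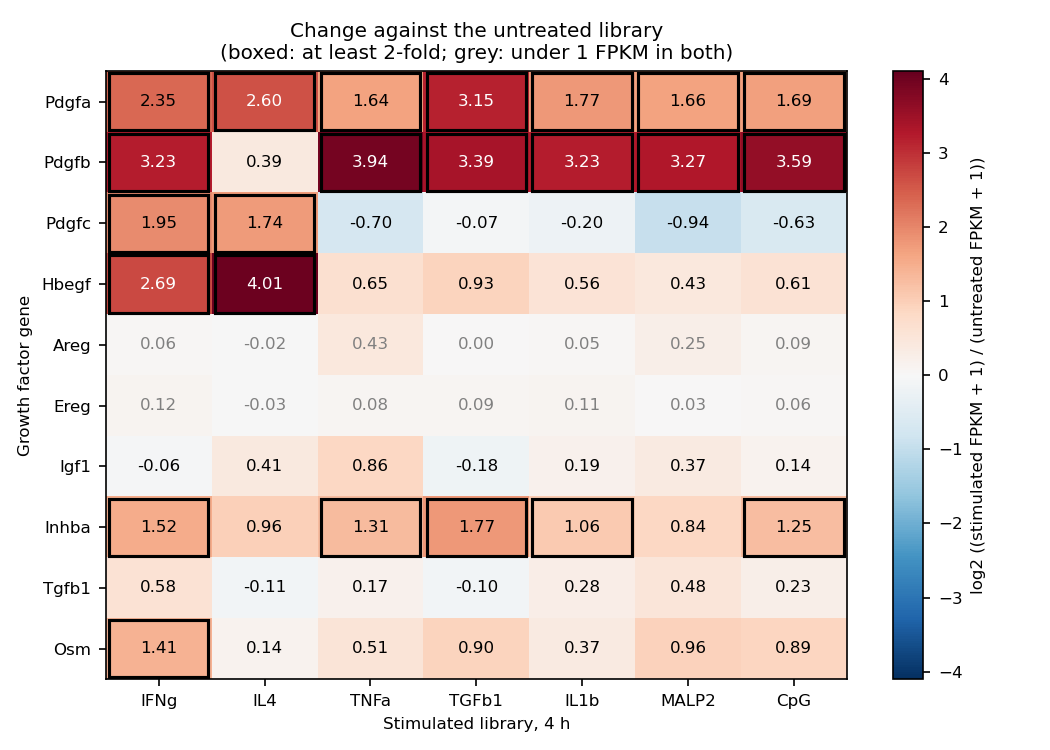
Log2 ratio of each gene (rows) in each stimulated library (columns) to the untreated library, as log2 of (stimulated FPKM + 1) over (untreated FPKM + 1), red for higher and blue for lower. Boxes mark ratios of at least 2-fold, which include all 7 values of Pdgfa, and grey numbers mark Areg and Ereg, which lie under 1 FPKM in both libraries.

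Pdgfa (ENSMUSG00000025856) encodes the A chain, which binds the receptor Pdgfra. Its level was 96.0 FPKM after IFNg, 114 after IL4, 58.5 after TNFa, 168 after TGFb1, 63.8 after IL1b, 59.4 after MALP2 and 60.6 after CpG, against 18.03 FPKM untreated. The TGFb1 library was the highest, the IL4 and IFNg libraries followed, and the other 4 stimulated libraries lay close together above the untreated one. The bounds of the lowest stimulated library, TNFa (45.2 to 71.8), did not reach those of the untreated library (13.1 to 22.9), whereas each other pair of neighbours in the order overlapped. The log2 ratio was 3.15 after TGFb1, 2.60 after IL4, 2.35 after IFNg and 1.64 to 1.77 after TNFa, IL1b, MALP2 and CpG. Set against the median of the other 6 stimulated libraries instead of the untreated one, the log2 ratio was 1.42 for TGFb1 and between -0.44 and 0.87 for each other agent. Pdgfa lies at chr5:139451967-139476530 (mm9, as deposited), on the minus strand, and this span also holds the gene 6330403L08Rik, listed at 3.14 FPKM untreated and at 3.74 (CpG) to 9.57 FPKM (TGFb1) stimulated. Whether the libraries keep strand is not stated, so reads of the 2 genes cannot be separated by strand.

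Pdgfb (ENSMUSG00000000489) encodes the B chain, which binds both PDGF receptors. It stood at 67.5 FPKM after IFNg, 8.45 after IL4, 109.8 after TNFa, 74.6 after TGFb1, 67.0 after IL1b, 69.3 after MALP2 and 86.3 after CpG, against 6.25 FPKM untreated. The libraries formed 2 levels: 6 stimulated libraries with overlapping bounds lay high, and IL4 (3.45 to 13.5) and untreated (2.30 to 10.2) lay low and overlapped. The log2 ratio was 3.94 after TNFa, 3.59 after CpG, 3.39 after TGFb1, 3.27 after MALP2 and 3.23 after both IFNg and IL1b, and 0.39 after IL4. The TNFa value ranked 60 of 12825 measured genes from the highest, and the TGFb1 value ranked 62 of 12847. Against the other 6 stimulated libraries, Pdgfb was lower in the IL4 library with a log2 ratio of -2.95, and between -0.10 and 0.68 in the others. Pdgfb lies at chr15:79826329-79845238 (mm9), and no other listed gene shares its deposited span.

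Pdgfc (ENSMUSG00000028019, chr3:80840337-81017962 in mm9, plus strand) encodes a chain that is secreted as an inactive protein and must be cut by a protease, such as the plasminogen activator Plat, before it binds Pdgfra. Its level was 14.5 FPKM after IFNg, 12.2 after IL4, 1.44 after TNFa, 2.77 after TGFb1, 2.46 after IL1b, 1.05 after MALP2 and 1.56 after CpG, against 2.97 FPKM untreated. IFNg and IL4 were high with overlapping bounds, and the bounds of IL4 (6.35 to 17.98) did not reach those of untreated (1.31 to 4.63). The other 5 stimulated libraries lay under the untreated one, with log2 ratios of -0.94 (MALP2) to -0.07 (TGFb1), none of them 2-fold with 1 FPKM added. With 0.1 FPKM added in place of 1, MALP2 passed 2-fold in the downward direction. Its level there is close to the 1 FPKM floor, and its bounds (0.393 to 1.72) overlapped those of untreated. This difference was not called in the authors' deposited table, with a Cuffdiff q-value of 0.0646. The log2 ratio was 1.95 after IFNg and 1.74 after IL4, and against the other 6 stimulated libraries it was 2.36 and 2.13. The IFNg library also held more stromal marker RNA: 14 fibroblast and stromal markers summed to 184 FPKM there, against 87.8 to 102 FPKM in the other stimulated and 84.2 FPKM in the untreated library, and its part in the IFNg value was not tested. In the IL4 library, where Pdgfc was 12.2 FPKM, the same markers summed to 89.1 FPKM.

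The upstream window of Pdgfc is shown because its transcript was high after the pair of agents IFNg and IL4. It is RefSeq's sequence of the 250 bases before the gene's start on GRCm38.p6, chr3:81036166-81036415, plus strand, and no GENCODE M21 exon overlaps it. Capitals mark the only match among the motifs searched on both strands, the loose NF-kB pattern GGGNNNNNCC, which begins 150 bases before the start. That pattern occurs in 45.8% of 32851 such windows.
Pdgfc: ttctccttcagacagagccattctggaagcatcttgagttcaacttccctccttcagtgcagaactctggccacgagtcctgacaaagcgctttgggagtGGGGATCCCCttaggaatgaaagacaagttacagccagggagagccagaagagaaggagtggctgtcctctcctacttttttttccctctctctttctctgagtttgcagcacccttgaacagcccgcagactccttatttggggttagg

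PDGF chain transcripts together came to 130 FPKM (MALP2) to 245 FPKM (TGFb1) in stimulated macrophages and 27.3 FPKM in untreated ones, and their make-up differed between agents. Pdgfb made up 64.7% of the PDGF FPKM after TNFa, 58.1% after CpG, 53.4% after MALP2 and 50.3% after IL1b. It made up 37.9% after IFNg, 30.4% after TGFb1 and 6.26% after IL4, against 22.9% untreated. Pdgfa was the larger part after IL4 (84.7%), TGFb1 (68.4%) and IFNg (53.9%), as it was untreated (66.1%). Pdgfc reached 9.01% after IL4 and 8.14% after IFNg, against 10.9% untreated, and at most 1.85% after each other agent. Pdgfd, the remaining chain gene, stayed under 0.1 FPKM in every library. Platelets also hold PDGF, and 10 megakaryocyte and platelet markers summed to 30.0 (IFNg) to 159 FPKM (MALP2) in stimulated libraries, against 49.0 FPKM untreated. Most of each sum was Pf4, at 27.3 (IFNg) to 154 FPKM (MALP2), against 45.8 FPKM untreated. Ppbp was 3.07 (TGFb1) to 5.56 FPKM (CpG) after every agent but IFNg, against 0.635 FPKM untreated and 0.644 FPKM after IFNg. After each agent but IFNg it was at least 2-fold higher and called in the authors' deposited table. The markers Gp1ba, Gp5, Gp6, Gp9 and Itga2b stayed under 1 FPKM in every library. The part of platelet RNA in the PDGF values was not tested.

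Among the EGF-family members Hbegf was the one that reached 1 FPKM. Hbegf (ENSMUSG00000024486) encodes HB-EGF, a heparin-binding ligand of Egfr and Erbb4. Its transcript stood at 9.65 FPKM after IFNg, 24.1 after IL4, 1.51 after TNFa, 2.01 after TGFb1, 1.34 after IL1b, 1.16 after MALP2 and 1.44 after CpG, against 0.598 FPKM untreated. IL4 was the highest, IFNg overlapped it, and the bounds of IFNg (3.39 to 15.9) did not reach those of the next library, TGFb1 (0.831 to 3.20). As a plain FPKM ratio, Hbegf was 40.3 times higher after IL4 and 16.2 times higher after IFNg, and the log2 ratios with 1 FPKM added were 4.01 and 2.69. The IL4 value ranked 72 of 12908 measured genes. For TNFa, TGFb1, IL1b, MALP2 and CpG the log2 ratios were 0.43 to 0.93, all in the upward direction, and the neighbouring bounds overlapped down to untreated (0.145 to 1.05). The gene is low there: with 0.1 FPKM added in place of 1, these 5 log2 ratios were 0.85 (MALP2) to 1.60 (TGFb1) and passed 2-fold for all but MALP2. The authors' deposited table called the TGFb1 difference, with a Cuffdiff q-value of 0.0341. Against the other 6 stimulated libraries the log2 ratios were 3.34 for IL4 and 2.10 for IFNg, and between -0.36 and 0.28 for the others. The bounds of Hbegf in IFNg and IL4 overlapped, but each value, 9.65 and 24.1 FPKM, lay outside the bounds of the other library. The stromal marker sum was 184 FPKM in the IFNg library and 89.1 FPKM in the IL4 library.

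Areg (ENSMUSG00000029378, chr5:91568640-91577458 in mm9, plus strand) encodes amphiregulin and Ereg (ENSMUSG00000029377, chr5:91503642-91522675, plus strand) epiregulin. The genes are neighbours with 46.0 kb between their deposited spans. Areg was listed at 0.0595 FPKM after IFNg, 0 after IL4, 0.363 after TNFa, 0.0158 after TGFb1, 0.0492 after IL1b, 0.211 after MALP2 and 0.0794 after CpG, against 0.0147 FPKM untreated. Only the TNFa library had a lower bound (0.0987) above the upper bound of untreated (0.0440), and the authors' deposited table, made with Cuffdiff, called this difference with a q-value of 0.0203. Ereg ran between 0.0152 FPKM (IL4) and 0.127 FPKM (IFNg) in stimulated libraries, against 0.0328 FPKM untreated, with overlapping bounds for each neighbouring pair. No fold is drawn from either gene, since both lay under the 1 FPKM floor throughout.

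The upstream window of Areg is shown as that of the member with the lowest untreated level, on GRCm38.p6 from RefSeq, chr5:91139349-91139598, plus strand, with no GENCODE M21 exon in it. Capitals mark 3 matches to the short CRE motif TGACG on either strand, of which the 2 nearest the start overlap, 1 match to GGGNNNNNCC and a TATA box (TATAAA) that begins 31 bases before the start. TGACG occurs in 17.8% and TATAAA in 12.4% of the 32851 windows.
Areg: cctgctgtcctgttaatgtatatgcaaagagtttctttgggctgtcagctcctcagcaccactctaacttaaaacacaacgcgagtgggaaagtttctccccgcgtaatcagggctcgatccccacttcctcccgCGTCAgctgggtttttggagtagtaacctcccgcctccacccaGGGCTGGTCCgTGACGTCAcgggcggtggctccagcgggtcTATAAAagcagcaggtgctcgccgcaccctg

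Ligand genes of the Egfr family were summed to set Hbegf beside its relatives. Hbegf, Areg, Ereg, Egf, Tgfa, Btc, Epgn and the neuregulins Nrg1 to Nrg4 summed to 26.4 FPKM after IL4 and 17.1 FPKM after IFNg, to 2.28 FPKM (IL1b) to 3.92 FPKM (CpG) in the other stimulated libraries, and to 1.92 FPKM untreated. Hbegf made up 91.1% of that sum after IL4 and 56.3% after IFNg, against 31.1% untreated. Nrg1, a ligand of Erbb3 and Erbb4, made up most of the rest after IFNg, with 6.76 FPKM in that library against 0.154 FPKM untreated.

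Igf1 (ENSMUSG00000020053) was the most abundant of the 10 in untreated macrophages. Its level was 197 FPKM after IFNg, 272 after IL4, 373 after TNFa, 181 after TGFb1, 233 after IL1b, 265 after MALP2 and 226 after CpG, against 205 FPKM untreated. The untreated library lay within the stimulated range, and each pair of neighbours overlapped in its bounds. Only TNFa (293 to 452) lay apart from untreated (159 to 250.2), with a log2 ratio of 0.86, under the 2-fold rule. The authors' deposited table called that difference, with a Cuffdiff q-value of 6.83e-04. In every library Igf1 was among the top 6.78% of genes at 1 FPKM or more. Igf2 stayed at or under 0.158 FPKM. The Igf1 gene lies at chr10:87289121-87399792 (mm9), plus strand, and the overlapping antisense gene Igf1os was listed at 0.0123 to 0.184 FPKM.

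Inhba (ENSMUSG00000041324, chr13:16103683-16119044 in mm9, plus strand) encodes the beta A subunit, whose homodimer is activin A. It stood at 3.38 FPKM after IFNg, 1.88 after IL4, 2.71 after TNFa, 4.03 after TGFb1, 2.11 after IL1b, 1.69 after MALP2 and 2.58 after CpG, against 0.495 FPKM untreated. All 7 stimulated libraries lay above the untreated one, and the bounds of neighbours overlapped along the whole order. Set directly against untreated (0.205 to 0.784), the bounds of IFNg, TNFa, TGFb1, IL1b and CpG lay apart and those of IL4 (0.626 to 3.13) and MALP2 (0.577 to 2.80) overlapped. The log2 ratio was 1.77 after TGFb1, 1.52 after IFNg, 1.31 after TNFa, 1.25 after CpG, 1.06 after IL1b, 0.96 after IL4 and 0.84 after MALP2. Because the gene is low, the plain FPKM ratios were larger, 3.41 (MALP2) to 8.15 (TGFb1), and with 0.1 FPKM added the log2 ratios were 1.59 (MALP2) to 2.80 (TGFb1). The authors' deposited table called all 7 differences, those under 2-fold with Cuffdiff q-values of 0.0155 (IL4) and 0.0350 (MALP2). Against the other 6 stimulated libraries no agent stood 2-fold apart, with log2 ratios from -0.44 to 0.59. Inhbb, the subunit of activin B, stayed under 0.5 FPKM, and the inhibin subunit Inha was listed at 0 in all but the MALP2 library.

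The upstream window of Inhba is shown because the transcript stood above its untreated level of under 1 FPKM after every agent. It is RefSeq's sequence on GRCm38.p6, chr13:16011601-16011850, plus strand, with no GENCODE M21 exon in it. Capitals mark a TATAAA match 91 bases and a GGGNNNNNCC match 28 bases before the start.
Inhba: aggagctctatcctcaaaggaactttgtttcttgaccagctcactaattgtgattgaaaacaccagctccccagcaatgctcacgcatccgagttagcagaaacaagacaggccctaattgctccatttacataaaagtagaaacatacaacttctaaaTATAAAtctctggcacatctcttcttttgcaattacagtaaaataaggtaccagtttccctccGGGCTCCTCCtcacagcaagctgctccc

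Tgfb1 (ENSMUSG00000002603) had the smallest spread of the 8 members that reached 1 FPKM, with its highest level 1.62 times its lowest. The transcript stood at 241 FPKM after IFNg, 149 after IL4, 180.5 after TNFa, 149 after TGFb1, 195 after IL1b, 225 after MALP2 and 188 after CpG, against 161 FPKM untreated. All pairs of libraries overlapped in their bounds, from IL4 (77.8 to 220.3) to IFNg (102 to 380.1). The log2 ratios ran from -0.11 (IL4) to 0.58 (IFNg), and after the agent TGFb1 the ratio was -0.10. Tgfb1 made up 98.9% or more of the FPKM of the 3 TGFb ligand genes in every library. Tgfb1 lies at chr7:26472020-26490096 (mm9), plus strand.

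The window upstream of Tgfb1 is shown for contrast, as that of the member with a high level and the smallest spread. It lies at chr7:25686752-25687001 on GRCm38.p6, plus strand, from RefSeq, has no GENCODE M21 exon in it and is 75.2% G or C, where the window of Inhba is 43.2%. Capitals mark 7 matches to GGGNNNNNCC, some of them overlapping, and 1 to the EGR motif GCGTGGG, which 4.3% of windows hold. In none of the windows printed was there a match to the AP-1 motif TGANTCA, held by 6.75% of the 32851 windows, or to the STAT patterns TTCNNNGAA (7.02%) and TTCNNNNGAA (5.85%).
Tgfb1: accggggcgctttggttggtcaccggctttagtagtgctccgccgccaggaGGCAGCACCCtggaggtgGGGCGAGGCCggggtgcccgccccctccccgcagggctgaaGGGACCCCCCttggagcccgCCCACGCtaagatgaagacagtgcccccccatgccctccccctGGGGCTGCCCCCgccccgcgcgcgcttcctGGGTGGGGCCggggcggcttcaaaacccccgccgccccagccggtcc

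Osm (ENSMUSG00000058755, chr11:4136422-4141029 in mm9, plus strand), a cytokine that myeloid cells release, was detected in every library, with a highest level 3.11 times its lowest. Its level was 12.1 FPKM after IFNg, 4.41 after IL4, 6.00 after TNFa, 8.10 after TGFb1, 5.32 after IL1b, 8.52 after MALP2 and 8.07 after CpG, against 3.90 FPKM untreated. All 7 stimulated values lay above the untreated one, but the bounds of IFNg (4.61 to 19.7) overlapped those of untreated (1.39 to 6.42). The log2 ratio was 1.41 after IFNg and 0.14 (IL4) to 0.96 (MALP2) after the others. With 0.1 FPKM added it passed 2-fold also for TGFb1 (1.04), MALP2 (1.11) and CpG (1.03). The authors' deposited table did not call the IFNg difference, with a Cuffdiff q-value of 0.0612, as given above. IFNg was also the library with the fewest reads behind each FPKM, and 12 neutrophil markers summed to 422 FPKM there, against 157 (IL4) to 373 FPKM (MALP2) in the other stimulated libraries and 269 FPKM untreated. S100a8, S100a9 and Ngp made up most of it, at 197, 160 and 41.8 FPKM after IFNg, against 119, 105 and 24.7 FPKM untreated. Ly6g, Mmp9 and Cxcr2 were also higher there, at 5.41, 1.65 and 0.636 FPKM, against 1.88, 0.745 and 0.129 FPKM untreated. The log2 ratio of Ly6g was 1.14, a difference the authors' deposited table did not call. Mpo, Elane, Camp, Ltf and Mmp8 were no higher after IFNg than untreated, and Retnlg was 1.05 FPKM in both. The part of neutrophil RNA in the Osm values was not tested. The relatives Lif and Clcf1 were lower: Lif stood at 3.83 FPKM after IFNg and 1.69 FPKM after IL1b, and at 0.327 FPKM untreated.

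Summed over the 10 genes, growth factor FPKM came to 570.1 (IL1b) to 733.5 (TNFa) in stimulated libraries and to 397.7 untreated. Igf1 and Tgfb1 together made up 91.9% of the untreated sum, 77.6% after MALP2 and 56.0% after TGFb1. In the order of genes at 1 FPKM or more, Pdgfa was in the top 5.81% after TGFb1 and in the top 43.5% untreated, and Pdgfb in the top 9.90% after TNFa and in the top 69.4% untreated. Pdgfc, Hbegf, Inhba and Osm stayed under 25 FPKM everywhere.

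**Figure D3:**
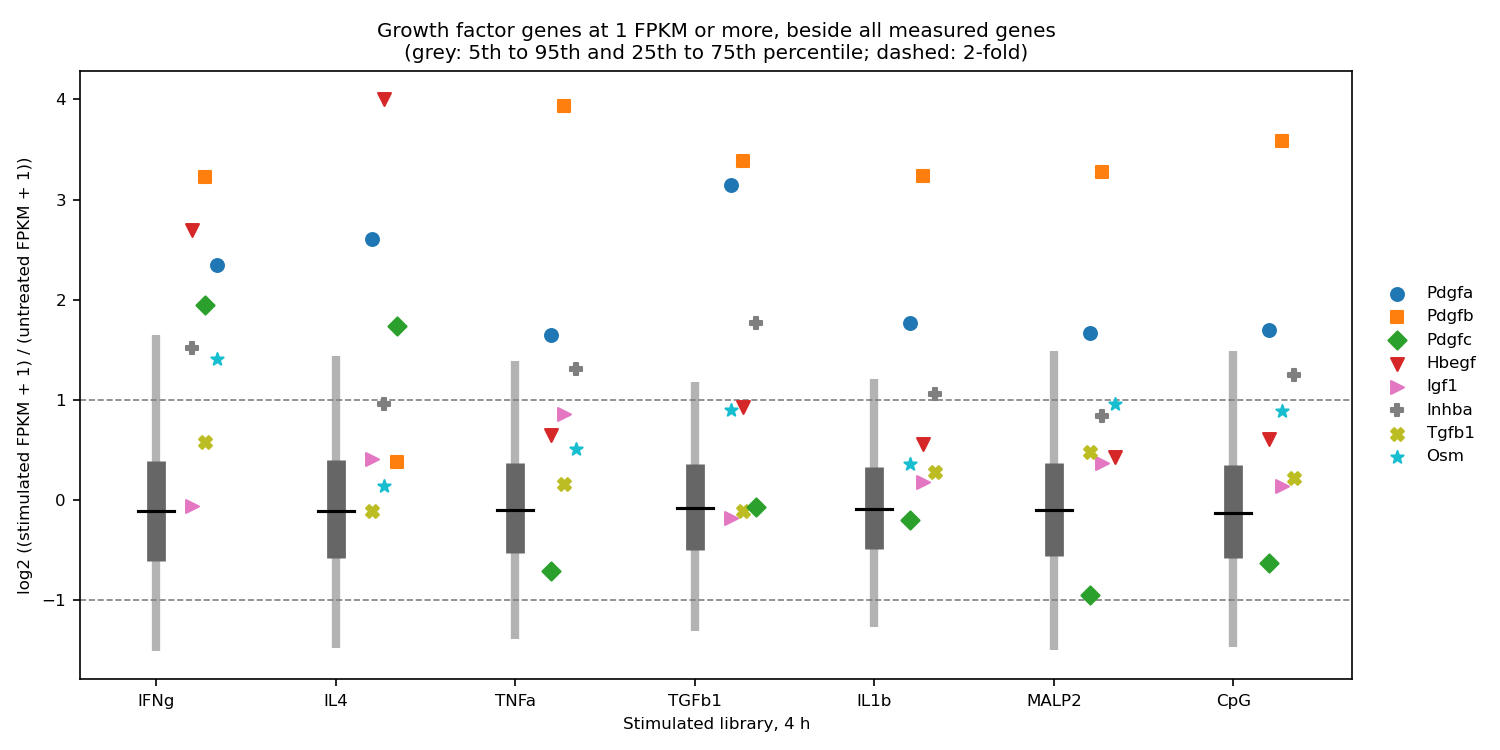
Log2 ratios of the 8 measured growth factor genes (symbols) to the untreated library, beside all measured genes of the same comparison (dark bar from the 25th to the 75th percentile, light bar from the 5th to the 95th, black line at the median). Pdgfb at 3.23 to 3.94 lies above the light bar in 6 comparisons, and Hbegf at 4.01 is the highest symbol in IL4.

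Genes whose levels followed a member most closely were looked up over the 8 libraries by Pearson correlation of log2(FPKM + 1), among 1828 genes at 5 FPKM or more in any library with a span of at least 2 on that scale. These coefficients rest on 8 libraries that each stand alone and differ in relative depth, and many genes can reach a high value over so few points. For Pdgfa the closest were Pmepa1 (r = 0.955), a Smad target that dampens TGFb signalling, Lrp8 (0.930) and Efr3b (0.929). For Pdgfb they were the integrin gene Itga5 (0.978), the scavenger receptor gene Olr1 (0.975) and Fos (0.975). For Pdgfc they were Rhoj (0.983), Snx5 (0.963) and Rhoh (0.955), and like Pdgfc these were high after IFNg and IL4. Rhoj stood at 13.4 FPKM after IFNg and 10.5 after IL4, against 3.07 FPKM untreated. For Hbegf they were Cystm1 (0.990), a neighbour 101.9 kb away on the same chromosome, Slc30a4 (0.989) and Cd164 (0.987). For Igf1 the closest was the prostacyclin receptor gene Ptgir (0.933), followed by Gm23202 (0.829) and Mir343 (0.815), which are listed at 0 in several libraries. For Osm they were Furin (0.948), the protease that cuts many growth factor precursors, Rap1gap2 (0.899) and Gpat3 (0.894). Inhba was too low for this comparison and Tgfb1 varied too little.

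Of the other ligand genes of the same families, 21 were looked up and few were measured: 2 in the IFNg comparison, both higher (Nrg1 and Lif), 2 after IL4 with 1 higher (Nrg1), 2 after IL1b with 1 higher (Lif), and 2 after CpG with 1 higher (Nrg1). Nrg1 (0.154 FPKM untreated) and Lif (0.327 FPKM untreated) were measured only through the stimulated library and could only be counted as higher, so nothing is read from these counts. After MALP2 1 was measured and did not pass, and after TNFa and TGFb1 none was. No median is given for so few genes.

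Another list held 24 secreted growth factors of other families. Higher and lower counts were 2 and 3 of 13 measured after IFNg, 3 and 3 of 15 after IL4, 0 and 5 of 13 after TNFa, 2 and 3 of 13 after TGFb1, 0 and 4 of 12 after IL1b, 1 and 3 of 13 after MALP2, and 1 and 4 of 14 after CpG. Their median log2 ratios were -0.43 (CpG) to 0.02 (IL4), beside -0.12 to -0.08 for all measured genes, among which lower genes also outnumbered higher ones in every comparison, by the shares given above. Gdf15, a stress-induced TGFb relative, stood at 0.880 FPKM after TGFb1 and 1.28 FPKM after IL4, against 9.21 FPKM untreated. Vegfb, a vascular growth factor, stood at 10.4 (CpG) to 13.8 FPKM (IL4), against 35.2 FPKM untreated. Fgf2, a fibroblast growth factor, was 8.94 FPKM after IL4 and 3.29 FPKM after TGFb1, against 0.238 FPKM untreated, and Ccn2, a matrix-associated factor known as a TGFb target, was 19.8 FPKM after IFNg and 4.91 FPKM untreated. Gas6, a ligand of the receptor Mertk, was 219.7 (TNFa) to 339 FPKM (IFNg), against 680.0 FPKM untreated. Its MALP2 difference was not called in the authors' deposited table, and the bounds there overlapped those of untreated. Fgf13 was 0.167 FPKM after TNFa and 3.81 FPKM untreated, with an untreated lower bound of 0.

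Receptors for the 10 factors divided into those the macrophages expressed and those near or under 1 FPKM. Among the latter, Pdgfrb lay near 1 FPKM untreated and had a log2 ratio of 0.51 after IFNg, under the 2-fold rule. It is also 1 of the stromal markers that summed highest in the IFNg library. Pdgfra, Erbb2, Erbb4, Acvr1c and Tgfbr3 stayed under 1 FPKM in all 8 libraries, Egfr ran from 0.410 FPKM (IL4) to 1.27 FPKM (IFNg) stimulated and was 0.428 FPKM untreated, and Osmr reached 1.02 FPKM (CpG) and was 0.346 FPKM untreated. The TGFb receptor chains Tgfbr1 and Tgfbr2 stood at 11.4 and 57.1 FPKM untreated, the activin receptor Acvr1b at 15.8, the gp130 chain Il6st at 50.3, the PDGF-binding co-receptor Nrp1 at 78.7, Lifr at 10.0, Insr at 6.59 and Igf1r at 3.34 FPKM. Higher and lower counts were 2 and 2 of 15 after IFNg, 2 and 2 of 13 after IL4, 0 and 5 of 14 after TNFa, 1 and 4 of 14 after TGFb1, 0 and 5 of 14 after IL1b, 1 and 6 of 14 after MALP2, and 2 and 4 of 15 after CpG. Of all measured genes, 7.15% (TGFb1) to 10.7% (IFNg) were higher and 8.57% (IL1b) to 12.7% (IFNg) lower. The median log2 ratios of the receptors were -0.54 (IL1b) to -0.02 (IFNg), beside -0.12 (CpG) to -0.08 (TGFb1) for all measured genes. Lifr was at least 2-fold lower after all 7 agents, at 1.86 (TGFb1) to 3.44 FPKM (IFNg). Tgfbr2 was 12.7 FPKM after MALP2 and 13.6 after CpG, and Nrp1 was 11.3 and 14.6 FPKM there. Tgfbr1 was at least 2-fold higher after its own ligand, at 50.3 FPKM in the TGFb1 library, and Il6st was 146 FPKM after IL4, a difference the authors' deposited table did not call. Insr was 1.63 FPKM after IFNg.

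A list of 38 genes covered proteins that release, activate or bind the factors. The higher and lower counts were 9 and 0 of 26 after IFNg, 5 and 0 of 25 after IL4, 4 and 1 of 25 after TNFa, 5 and 1 of 25 after TGFb1, 3 and 0 of 25 after IL1b, 4 and 1 of 24 after MALP2, and 8 and 2 of 28 after CpG. These counts stand beside 10.7%, 9.86%, 8.92%, 7.15%, 7.29%, 9.53% and 9.43% of all measured genes higher after the same agents in that order. Lower shares of all measured genes were 8.57% (IL1b) to 12.7% (IFNg). The median log2 ratio was near 0 after IL4 (-0.0040) and 0.24 (MALP2) to 0.70 (IFNg) after the others. For all measured genes the medians were -0.12 (CpG) to -0.08 (TGFb1). Adam8, a surface protease, stood at 685 (IFNg) to 1553 FPKM (IL4), against 177 FPKM untreated. Adam17, the main sheddase of the EGF-family precursors, was 64.4 (IL4) to 156 FPKM (TNFa), against 102 FPKM untreated, and its partner Rhbdf2, which brings Adam17 to the surface, was 118 FPKM after IFNg, 128 after CpG and 92.3 after MALP2, against 20.5 FPKM untreated. In the IL4 library, where Hbegf was highest, Rhbdf2 was 23.5 FPKM. Plau, the protease urokinase, was 390.0 FPKM after IFNg, 663 after IL4, 190 after TNFa, 482 after TGFb1 and 304 after IL1b, and 29.6 after MALP2 and 41.7 after CpG, against 28.7 FPKM untreated. Plat was 2.60 FPKM after CpG and 0.252 and 0.226 FPKM after IFNg and IL4, the 2 libraries high in Pdgfc, against 0.117 FPKM untreated. Itgav, the integrin chain that helps activate latent TGFb1, was 46.7 (MALP2) to 103 FPKM (IL4), against 20.7 FPKM untreated. The activin antagonist Fst was 2.08 FPKM after IFNg and 1.65 after CpG, against 0.239 FPKM untreated, and the IGF-binding protein gene Igfbp4 was 86.9 (CpG) to 156 FPKM (IL4), against 228 FPKM untreated. Fst and Plat lay under 1 FPKM untreated, so where measured they could only be counted as higher.

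**Figure D4:**
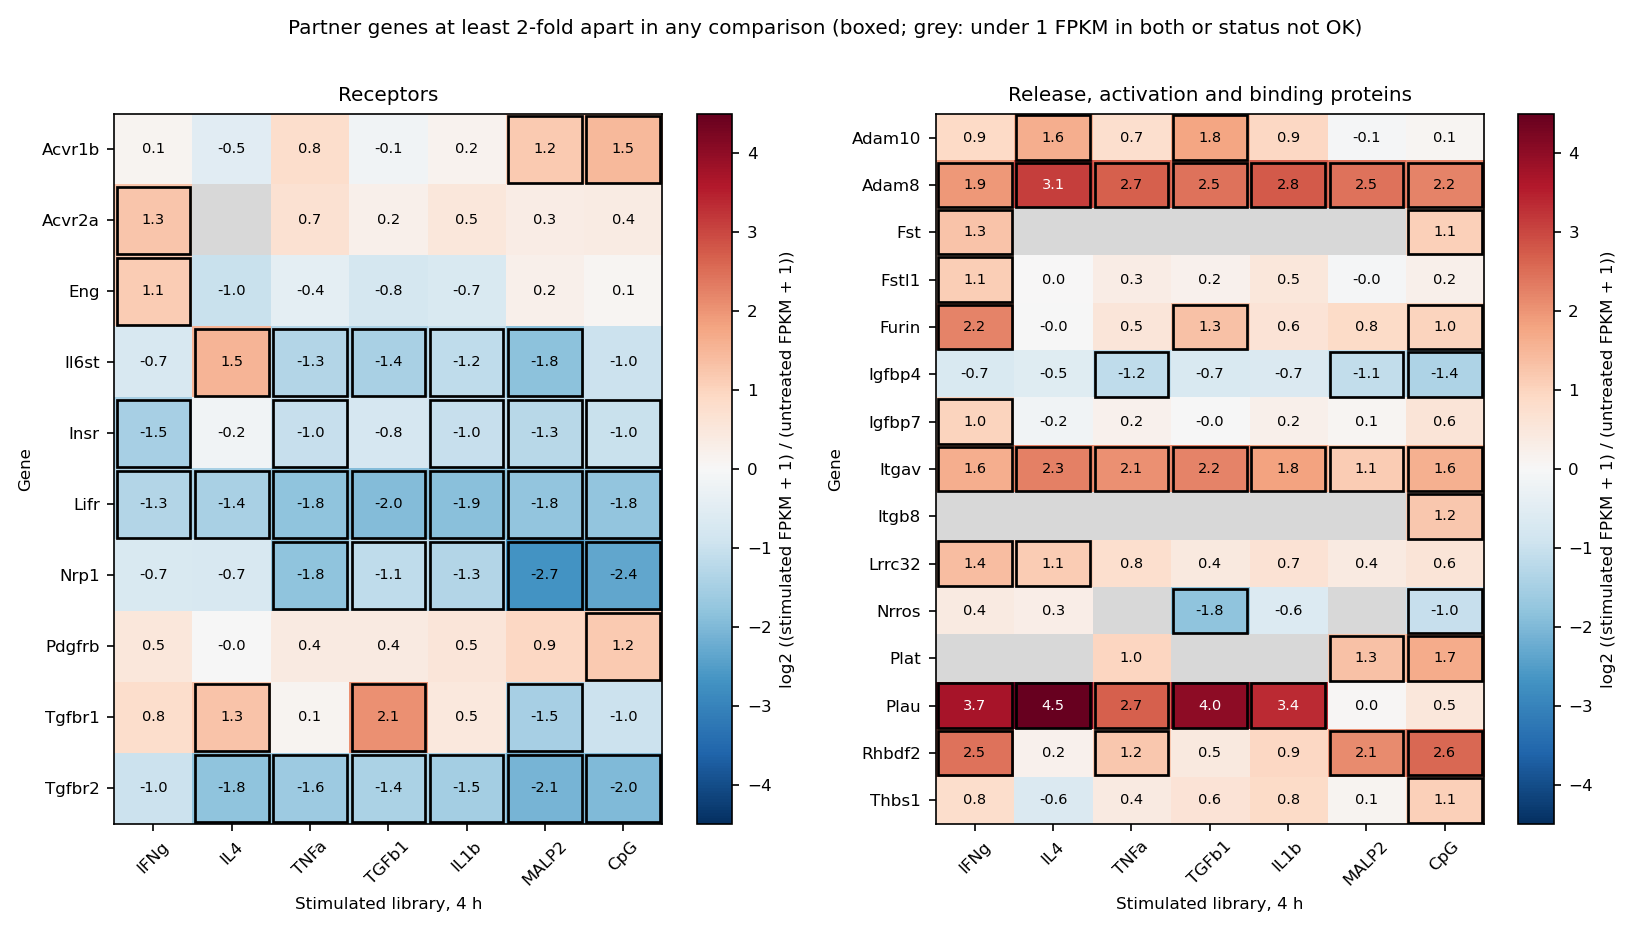
Log2 ratio to the untreated library of the receptor genes (left) and of the release, activation and binding genes (right) that were at least 2-fold apart in any comparison, with boxes at 2-fold or more and grey where a gene was under 1 FPKM in both libraries or lacked an OK status. Lifr is boxed as lower in all 7 columns, and Adam8 and Itgav as higher in all 7.

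Early targets and feedback genes of these receptors were mostly higher, but many of them are also known direct targets of the agents added. Higher and lower counts among 26 genes were 16 and 1 of 22 measured after IFNg, 13 and 0 of 20 after IL4, 16 and 0 of 21 after TNFa, 12 and 0 of 21 after TGFb1, 15 and 0 of 21 after IL1b, 13 and 0 of 21 after MALP2, and 13 and 0 of 21 after CpG. Of all measured genes, 7.15% (TGFb1) to 10.7% (IFNg) were higher and 8.57% (IL1b) to 12.7% (IFNg) lower. The medians of the list were 1.18 (TGFb1) to 2.21 (CpG), beside -0.12 (CpG) to -0.08 (TGFb1) for all measured genes. Pmepa1 was 139 FPKM after TGFb1 and 30.6 (MALP2) to 75.5 FPKM (IFNg) after the others, against 1.46 FPKM untreated. Skil, a Smad repressor, was 33.0 (MALP2) to 56.4 FPKM (TGFb1), against 7.66 FPKM untreated. Socs3, the feedback inhibitor of gp130 signalling, was 781 FPKM after CpG, 602 after MALP2 and 304 after IFNg, and 4.22 after IL4, against 8.91 FPKM untreated. Cish, a STAT5 target, was 72.8 FPKM after IL4 and 29.9 after IFNg, against 0.977 FPKM untreated. Dusp5, an ERK phosphatase, was 18.6 FPKM after IL1b, Phlda1 was 35.2 after MALP2 and 31.8 after CpG, and Fos was 178 after TNFa, against 0.653, 0.646 and 9.98 FPKM untreated. Dusp5 and Phlda1 lay under 1 FPKM untreated, so where measured they could only be counted as higher, and Cish lay close to that floor.

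Markers of the labelled cell type were present throughout: 11 of 11 macrophage markers, among them Csf1r and Adgre1, were at 1 FPKM or more in all 8 libraries, and summed to 6363 to 9532 FPKM stimulated and 7843 FPKM untreated. Sums of markers of other cells, stimulated and then untreated, were 14.7 to 47.4 and 36.2 FPKM for 12 lymphocyte genes, and 2.57 to 7.78 and 1.49 FPKM for 6 eosinophil genes. Mast cell and basophil genes summed to 0.889 to 1.86 and 2.36 FPKM, with Cma1, Mcpt4, Ms4a2, Tpsab1 and Tpsb2 at 0 everywhere. The 8 B cell genes summed to 39.7 to 73.7 FPKM stimulated and 239.8 FPKM untreated, so this sum separated the untreated library from the 7 others, as Pdgfa did. Inhba was also lowest in the untreated library, but its bounds there overlapped those of IL4 and MALP2. The part of B cell RNA in the Pdgfa and Inhba values was not tested. Of the 14 stromal genes 11 were at 1 FPKM or more in the IFNg, TNFa, TGFb1 and IL1b libraries, 10 in IL4, 9 in MALP2 and CpG and 8 in the untreated one, and Col1a1, Col1a2, Acta2 and Sparc were at least 2-fold higher after IFNg. Absolute depth is unknown, since the tables hold no counts. Judged from the lowest values above 0, a single fragment added 2.04 times the FPKM in the IFNg library that it added in the untreated library, and 1.04 to 1.44 times in the remaining 6 stimulated ones.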

How the data were processed

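RNA was measured in 8 libraries, 1 per group, grouped by their treatment labels. The submitters' processing notes name the build mm9, TopHat 1.3.1 for alignment, Cufflinks 1.2.1 for quantification and Cuffdiff 1.2.1 for comparison; for options, strandedness and read counts the sources used here give nothing. The authors deposited FPKM with lower and upper bounds for each stimulus and the untreated library (7 tables), and 7 comparison tables that hold, per the file headers, a q-value and whether the gene was called. Each table has 36806 lines, of which 31840 have a symbol. Lines with a status other than OK, 336 to 388 per table, were left out, and for levels also Vegfa, Nrros, Egr2, Socs2 and Lyz2.

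From these values log2((stimulated FPKM + 1)/(untreated FPKM + 1)) was computed for all genes, with a floor of 1 FPKM in either library. With 1 library per group no p-value was computed. The untreated columns differ by 1 factor per table, which joined the tables; FPKM is relative to the library total, so a few abundant transcripts lower all others. The rule was tested on simulated data. The members and gene lists were chosen with earlier results of these data known. Besides the 10 members, the text names the 2 genes of each list furthest from 0 per stimulus. It also names most of the receptors and the 3 genes of most similar pattern. Adam17, Plat, Itgav, Fst, Igfbp4, Clcf1, Inhbb and the family sums were added for their known role after their values were seen. Promoter windows were found for 6 members; protein sequences were not analysed here. Alternatives were a pseudocount of 0.1, floors of 5 FPKM and none, the authors' call, ratios centred on the median gene, bounds that do not overlap, and the other 6 stimulated libraries as reference. The tools were pandas 2.3.3 and numpy 2.4.6 for tables, scipy 1.17.1 for correlations and matplotlib 3.10.9 for plots, under Python 3.11.15.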

Additional observations from a re-analysis of the deposited data

How the results depend on the processing

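No paired analysis was possible because each group holds 1 library, and for the same reason no library could be left out in turn. With the other 6 stimulated libraries as reference, the count of higher members was 2 for IFNg, 0 for TNFa, 1 for TGFb1, 0 for IL1b, 0 for MALP2 and 0 for CpG, and 1 member was lower for IL4; among values past 2-fold, the signs of Pdgfa turned for TNFa (-0.44), IL1b (-0.29), MALP2 (-0.42) and CpG (-0.39), of Pdgfb for IFNg (-0.091), IL1b (-0.10) and MALP2 (-0.036), and of Inhba for IL1b (-0.23). Ratios under 2-fold also turned, among them Pdgfb for IL4 (-2.95), Hbegf for TNFa (-0.12), IL1b (-0.24), MALP2 (-0.36) and CpG (-0.18), and Inhba for IL4 (-0.34) and MALP2 (-0.44). These comparisons ask whether an agent stands apart from other agents, so values shared by most stimulated libraries shrink by construction. With a pseudocount of 0.1 FPKM, 5 members were higher for TGFb1, 4 for MALP2 and 5 for CpG, and 1 was lower for MALP2. All other counts, under a floor of 5 FPKM, no floor, centring, the authors' call and bounds that do not overlap, were within 1.5 times the main count. Of the recomputed log2 ratios of single members, 227 moved by less than the width the deposited bounds give them, and the others moved by more or turned sign from past 2-fold. Centring moves all ratios up by 0.071 to 0.10. The read depth of the IFNg library, the lowest relative to untreated, limits values near 1 FPKM there.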
